A study of Mus musculus with 57 samples.

Results

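The genes described here encode the mouse topoisomerases and the enzymes that free them from DNA. The list held 8 genes, taken by symbol, and all 8 were found in the count table of an acute study, which held 25416 genes, and in that of a chronic study, which held 54658 genes. The 8 genes were *Top1*, *Top1mt*, *Top2a*, *Top2b*, *Top3a*, *Top3b*, *Tdp1* and *Tdp2*. All 8 also passed the filter on low counts, which left 14240 acute and 14960 chronic genes to be tested. They were not chosen by any measured value, although the list was drawn up with earlier results of these data known.

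Topoisomerases relieve twists and tangles of DNA by cutting it, passing strands through and sealing the cut again, and for a moment the enzyme is bound to the DNA end. Type I enzymes cut a single strand and type II enzymes cut both, and doxorubicin (Doxo) is an anthracycline that traps the type II enzymes on the cut DNA. TOP2A is made by dividing cells, while TOP2B is also present in cells that no longer divide, such as cardiomyocytes, where it has been studied as a target of Doxo. TDP1 and TDP2 are phosphodiesterases that detach stalled topoisomerases from DNA ends, TDP1 mainly TOP1 and TDP2 mainly TOP2.

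RNA of heart tissue from male C57BL/6 mice was sequenced in both studies, with 57 hearts in all. In the acute study, mice bought at 9 weeks of age received vehicle (Ctrl, 14 hearts), 1 i.p. injection of 20 mg/kg Doxo (Doxo, 13 hearts), or that injection with 180 mg/kg/day i.p. nicotinamide mononucleotide (NMN), a precursor of NAD+, started 5 days before Doxo (Doxo-NMN, 13 hearts), and hearts were collected on day 5. In the chronic study, mice aged 14 to 16 weeks received vehicle (Ctrl, 5 hearts), 5 i.p. injections of 4 mg/kg Doxo, 20 mg/kg in total (Doxo, 6 hearts), or these injections with 500 mg/kg/day NMN in the drinking water, started 5 days earlier (Doxo-NMN, 6 hearts), and hearts were collected on day 60 after the first injection. Each heart came from 1 mouse, only mice alive on these days gave hearts, neither study had a group given NMN without Doxo, and the comparisons within a study share hearts.

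The depth was between 32409622 and 52102850 counts per acute heart and between 17769886 and 23862287 counts per chronic heart. Levels are given as CPM, counts per 1000000 counts of the normalized library. The limit set for detection was 3 counts, for counting error only. Per 1000000 counts of the library before normalization it was worth 0.0576 to 0.0926 in the acute and 0.126 to 0.169 in the chronic study. In CPM of the normalized library the limit differs somewhat from this by heart, and 22 counts of *Top2a* gave 0.769 CPM in acute Doxo replicate 4. All 5 cardiomyocyte markers examined had counts in every group, and their summed level ranged from 26142.9 to 70648.2 CPM over the acute hearts. The p53 response list, used as a check of the treatment, rose in 5 of 8 genes (62.5%, against 34.8% of all genes) and fell in 1 (12.5%, against 33.3%) in acute Doxo vs. Ctrl. The log2 fold change was 2.51 for *Trp53inp1*, a p53-induced nuclear protein, 1.54 for *Cdkn1a*, the p21 inhibitor of the cell cycle, and -0.97 for *Ccng1*, cyclin G1, the gene that fell. Doxo replicate 6 of the acute study stood apart from the other Doxo hearts, with a summed level of 5 erythroid genes of 338.3 CPM against a median of 2.30 CPM in its group, and 3.85 CPM in the next highest Doxo heart. A total of 17 acute hearts carried high levels of the atrial gene *Myl4*, at least 100 CPM, and these were 8 Ctrl, 5 Doxo and 4 Doxo-NMN hearts. The other 23 acute hearts lay below this limit, and the sources used here do not state which chambers were taken. The summed level of 4 atrial genes ranged from 27.1 to 4921.8 CPM over the acute and from 69.1 to 536.1 CPM over the chronic hearts.

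The members lie on 7 chromosomes (GRCm38, GENCODE). *Top1* (ENSMUSG00000070544) lies at chr2:160645888-160722764 on the plus strand, *Top1mt* (ENSMUSG00000000934) at chr15:75657035-75678800 on the minus strand, *Top2a* (ENSMUSG00000020914) at chr11:98992943-99024189 on the minus strand, and *Top2b* (ENSMUSG00000017485) at chr14:16365179-16435462 on the plus strand. *Top3a* (ENSMUSG00000002814) lies at chr11:60740058-60777365 on the minus strand, *Top3b* (ENSMUSG00000022779) at chr16:16870736-16892990 on the plus strand, *Tdp1* (ENSMUSG00000021177) at chr12:99884517-99955219 and *Tdp2* (ENSMUSG00000035958) at chr13:24831679-24842153, both on the plus strand. Values are for all exons of a gene together, so that 5′ and 3′ UTRs are included and isoforms are not told apart. The setting for strand in the counting is not given in the sources used here, and 12.3% of the exon bases of *Top2b* overlap exons of *Rarb*, the retinoic acid receptor beta gene on the opposite strand, so that reads of these genes may not be told apart there. For *Top1mt*, *Top2a* and *Top3b* such overlaps covered 4.65%, 1.35% and 1.29% of exon bases.

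In Ctrl hearts the levels per length of the members spanned more than an order of magnitude. Per kilobase of exon sequence, *Top1*, the main nuclear type I enzyme, had the highest acute level at 6.70 ± 0.342 CPM/kb (SD, n = 14), followed by *Top2b* at 5.99 ± 0.217 CPM/kb, and the ranges of these neighbours overlapped. *Tdp2* followed at 4.16 ± 0.330 CPM/kb, *Top3b* at 2.75 ± 0.130 CPM/kb and *Top1mt*, the mitochondrial type I enzyme, at 2.30 ± 0.223 CPM/kb. *Top3a* was at 1.12 ± 0.187 CPM/kb, *Tdp1* at 0.793 ± 0.0834 CPM/kb and *Top2a* was lowest at 0.243 ± 0.0716 CPM/kb. The neighbours *Top3b* and *Top1mt* and the neighbours *Top3a* and *Tdp1* also overlapped in range, while the other neighbours did not. In chronic Ctrl hearts *Top1* was again first at 6.04 ± 1.38 CPM/kb (SD, n = 5) and *Top2a* last at 0.257 ± 0.0926 CPM/kb, and the ranges of neighbours overlapped from *Top3b* through *Tdp2* and *Top2b* to *Top1mt*. The lengths are those of GENCODE genes, and the gene models behind the 2 tables are not given in the sources used here, so that levels are not set against each other between studies.

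**Figure D1:**
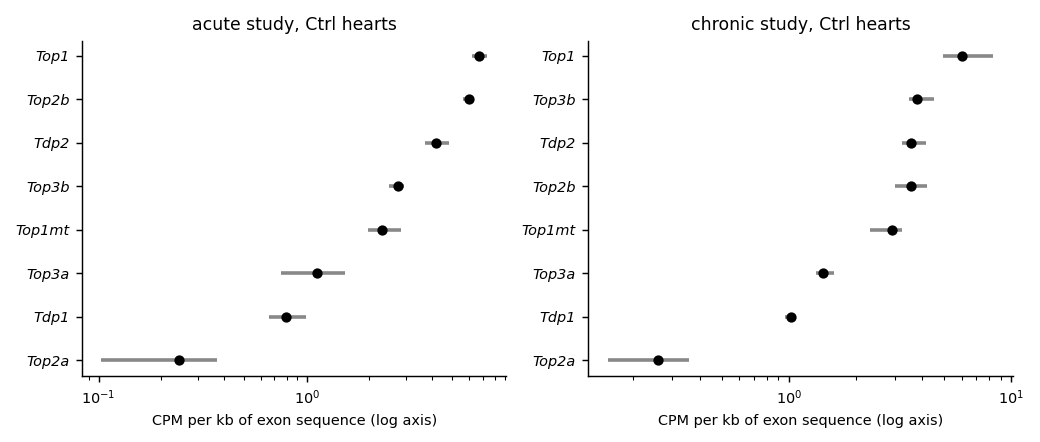
Level of each member per kilobase of exon sequence in Ctrl hearts (x axis, CPM/kb, log axis), acute study at left (n = 14) and chronic study at right (n = 5). Points are means and bars run from the lowest to the highest heart; *Top1* is first and *Top2a* last in both studies.

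Of the 8 members, 5 have a promoter entry in RefSeq (GRCm38.p6), and the 250 bases before the start site are shown for *Top2a*, which carried the largest change, for its sister gene *Top2b*, which differed from it in response, and for *Tdp1*. They lie at chr11:99024190-99024439 (minus strand), chr14:16364956-16365205 (plus strand) and chr12:99884268-99884517 (plus strand). Searched on both strands, the capitals mark CCAAT or ATTGG (the core of the NF-Y site), TTTGAA or TTCAAA (the letters of the cell cycle homology region) and GGGCGG or CCGCCC (the core of an Sp1 site), and no marked letters overlapped.
Top2a: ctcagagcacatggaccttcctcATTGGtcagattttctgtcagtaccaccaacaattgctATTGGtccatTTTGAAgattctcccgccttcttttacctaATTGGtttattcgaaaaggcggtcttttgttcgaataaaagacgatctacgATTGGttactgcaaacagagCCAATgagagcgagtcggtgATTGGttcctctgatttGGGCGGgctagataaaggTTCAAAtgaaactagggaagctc
Top2b: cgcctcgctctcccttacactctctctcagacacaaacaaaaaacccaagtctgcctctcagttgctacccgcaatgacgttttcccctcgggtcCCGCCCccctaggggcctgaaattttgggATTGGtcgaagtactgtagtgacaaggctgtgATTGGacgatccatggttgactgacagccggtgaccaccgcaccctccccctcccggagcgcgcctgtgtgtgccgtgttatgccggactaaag
Tdp1: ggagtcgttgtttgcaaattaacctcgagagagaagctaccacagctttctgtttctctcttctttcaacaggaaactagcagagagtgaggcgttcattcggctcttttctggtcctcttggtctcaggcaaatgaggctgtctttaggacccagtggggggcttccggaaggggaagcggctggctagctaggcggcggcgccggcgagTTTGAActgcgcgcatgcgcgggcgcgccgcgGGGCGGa
The *Top2a* window held 6 CCAAT, 2 TTTGAA and 1 GGGCGG, the *Top2b* window held 2 CCAAT and 1 GGGCGG, and the *Tdp1* window held 1 TTTGAA and 1 GGGCGG. Of the other members, *Top1* held 3 GGGCGG and *Top3b* held 1 CCAAT. Across the genome, CCAAT was present in 33.8%, TTTGAA in 16% and GGGCGG in 32.7% of all 32851 promoter windows. Of 15 proliferation genes, 11 had an entry, and 81.8% of these held CCAAT, 36.4% TTTGAA and 81.8% GGGCGG. These matches describe the letters of the windows and not binding.

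To ask how acute Doxo treatment affected these genes, Doxo hearts were compared with Ctrl hearts. *Top2a* fell the most, with a log2 fold change of -1.58, *Tdp1* fell with one of -0.37, and *Top3a*, *Tdp2* and *Top3b* rose with log2 fold changes of 0.39, 0.14 and 0.097. No change passed the test for *Top1*, *Top1mt* or *Top2b*. A gene is said to rise or fall at an adjusted p under 0.05 (edgeR, Benjamini-Hochberg over all genes tested), and 3 members rose, against 34.8% of all genes tested, and 2 fell, against 33.3%, or 5 in all against 68.1%. With a fold change of at least 1.5 as well, 1 member was called, *Top2a*, which fell, against 30.1% of all genes in either direction and 15.4% that fell. No member had groups that did not overlap in CPM, against 0.906% of all genes. The share of members that changed was thus no higher than that of all genes, and the median log2 fold change was 0.026 over the members and -0.00157 over all genes.

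**Figure D2:**
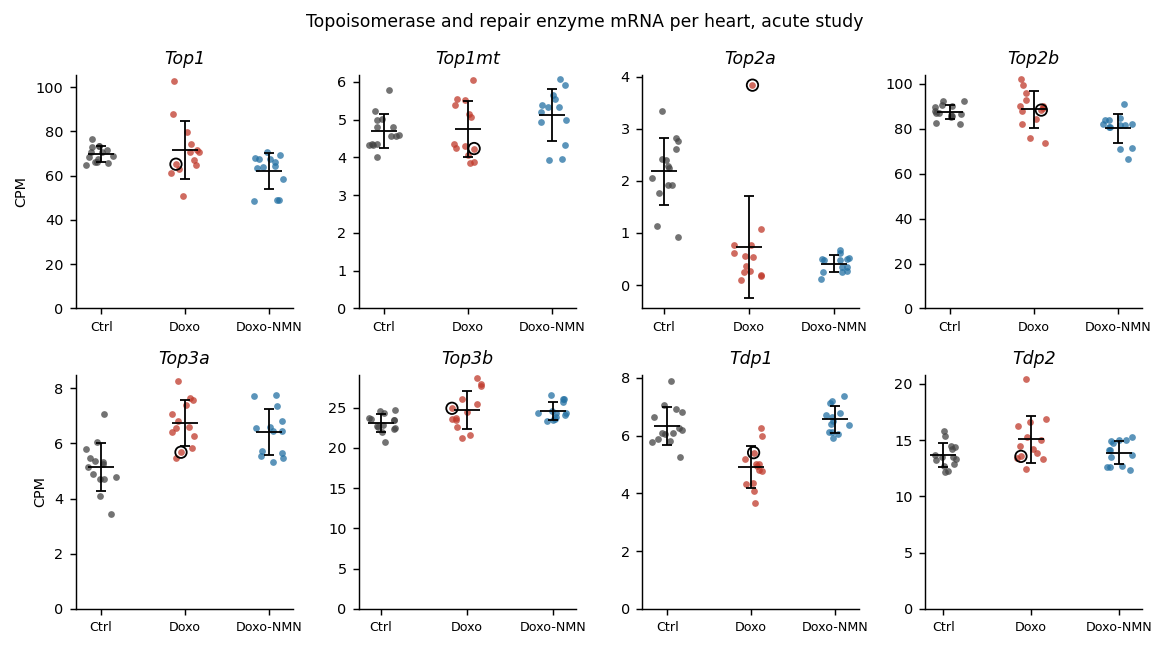
Level of each member in every heart of the acute study (y axis, CPM), with Ctrl (n = 14), Doxo (n = 13) and Doxo-NMN (n = 13) hearts as points and mean ± SD as bars. The circled point is Doxo replicate 6, whose *Top2a* level of 3.84 CPM lies above all other acute hearts, and the Doxo-NMN hearts lie below all Ctrl hearts for *Top2a* alone.

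The type II enzymes differed in their response. In Ctrl hearts *Top2a* had a lowest level of 0.931, a median of 2.27 and a highest level of 3.34 CPM, from 37 to 119 counts per heart. In Doxo hearts its lowest level was 0.0991, its median 0.530 and its highest level 3.84 CPM, from 4 to 154 counts. The groups overlapped, since the highest Doxo level was that of replicate 6 and the next highest, 1.07 CPM, lay between the lowest and second lowest Ctrl hearts. The log2 fold change was -1.58 ± 0.344 (SE, adjusted p = 1.2e-04), and without Doxo replicate 6 it was -2.22, with a mean of 0.471 ± 0.297 CPM (SD, n = 12) in place of 0.730 ± 0.976 CPM (n = 13). *Top2b* had a median of 87.0 CPM in Ctrl hearts, with a range of 82.2 to 92.4 CPM. In Doxo hearts its median was 89.4 CPM, with a range of 73.8 to 102.4 CPM around the Ctrl range on both sides. For *Top2b* the log2 fold change was 0.018, with a 95% interval of -0.072 to 0.11, so that a change of *Top2b* mRNA as large as that of *Top2a* lay outside the interval. Taken per length, *Top2a* made up 3.87 ± 1.06% of the *Top2a* and *Top2b* mRNA in Ctrl hearts (SD, n = 14), 1.32 ± 1.67% in Doxo hearts (n = 13) and 0.839 ± 0.358% in Doxo-NMN hearts (n = 13). Without Doxo replicate 6, at 6.58%, the Doxo value was 0.878 ± 0.567% (n = 12).

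Genes of proliferating cells fell in the same comparison. Of 15 proliferation genes, 12 could be tested, 9 fell (75%, against 33.3% of all genes) and 0 rose, with a median log2 fold change of -0.83. They included *Cenpf* (log2 fold change -1.59), a kinetochore protein, *Tpx2* (-1.61), a spindle assembly factor, *Cdk1* (-1.87), the kinase of mitotic entry, and *Mki67* (-1.12), the proliferation marker Ki-67. Across the hearts within each acute group, the mean Pearson r of *Top2a* with the 12 tested genes ran from 0.071 for *Cenpf* to 0.67 for *Cdk1*. These are 40 hearts of 3 groups, which share normalization and low counts, and Doxo replicate 6 is among them. With ranks in place of levels the mean was -0.018 for *Cenpf*, 0.45 for *Mki67* and 0.47 for *Cdk1*. Marker genes of red cell precursors moved with *Top2a* as well. The summed level of 5 erythroid genes ranged from 437.4 to 4311 CPM in Ctrl hearts, from 1.19 to 338.3 CPM in Doxo hearts and from 0.209 to 2.81 CPM in Doxo-NMN hearts. Each of these 5 genes had counts in some heart of each group. The summed level of the 15 proliferation genes ranged from 30.4 to 59.4, from 10.6 to 38.9 and from 9.28 to 30.7 CPM. Doxo replicate 6 had the highest value of its group in both lists. *Cenpf* alone made up a median of 60.4%, 43.7% and 70.0% of the proliferation sum in Ctrl, Doxo and Doxo-NMN hearts. Without it the sum of the other 14 genes had medians of 14.7, 8.32 and 6.33 CPM, and Doxo replicate 6 was again the highest Doxo heart, at 18.7 CPM. The 4 endothelial genes had medians of 605.8, 604.8 and 490.5 CPM and the 4 macrophage genes medians of 96.6, 62.2 and 78.6 CPM in Ctrl, Doxo and Doxo-NMN hearts. The sum of 4 B lymphocyte genes had medians of 1.15, 0.360 and 0.579 CPM, and Doxo replicate 6 had the highest value of all acute hearts, 2.52 CPM. The sum of 4 neutrophil genes went the other way, with medians of 1.33, 12.8 and 8.06 CPM, and reached 255.1 CPM in Doxo replicate 13. The part of these cells in the *Top2a* values was not tested, and in RNA of heart tissue fewer cells of a type and less RNA per cell cannot be told apart.

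**Figure D3:**
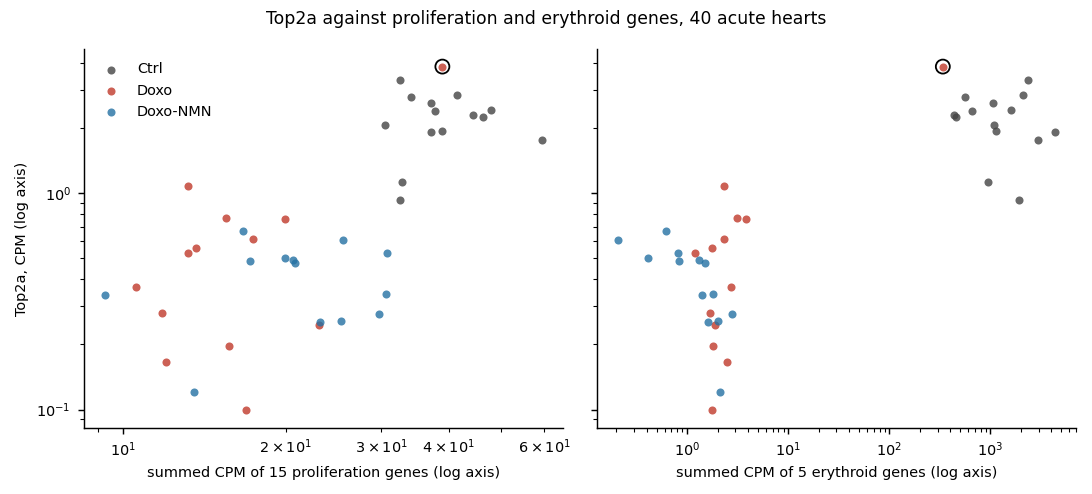
*Top2a* level (y axis, CPM, log axis) against the summed level of 15 proliferation genes (left) and 5 erythroid genes (right; x axes, CPM, log axes) in the 40 acute hearts, coloured by group. *Cenpf* makes up a median of 60.4% of the proliferation sum in Ctrl hearts. Doxo replicate 6, circled, lies near the Ctrl hearts in both panels, and the erythroid sums of the other Doxo and the Doxo-NMN hearts all lie below 4 CPM.

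The type I enzymes of the main nuclear and mitochondrial kind showed no change that passed the test. *Top1* had a median of 70.0 CPM in Ctrl hearts, with a range of 64.6 to 76.5 CPM. In Doxo hearts its median was 70.5 CPM, and the range of 50.9 to 103.0 CPM enclosed the Ctrl range. The coefficient of variation of *Top1* was 5.10% in Ctrl and 18.2% in Doxo hearts, and the log2 fold change was 0.034 (95% interval -0.11 to 0.18). *Top1mt* had medians of 4.58 and 4.34 CPM in Ctrl and Doxo hearts, and a log2 fold change of 0.015 (95% interval -0.14 to 0.17).

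The type IA enzymes, which pass single strands and work with partner proteins, both rose, *Top3a* by more than *Top3b*. *Top3a* acts with the helicase BLM on joined DNA molecules and also in mitochondria. Its level in Ctrl hearts was 3.45 CPM at the lowest, 5.20 CPM at the median and 7.05 CPM at the highest. In Doxo hearts the same values were 5.49, 6.59 and 8.25 CPM, so that the lowest Doxo heart lay above the Ctrl median although the groups overlapped. On the log2 scale the fold change was 0.39 ± 0.0824 (SE, adjusted p = 8.57e-05). *Top3b*, which acts with TDRD3 on DNA and RNA, had a Ctrl range of 20.8 to 24.7 CPM and a median of 23.1 CPM. In Doxo hearts its range was 21.2 to 28.7 CPM and its median 24.5 CPM. The change of 0.097 ± 0.0409 on the log2 scale (SE, adjusted p = 0.0347) passed in 27 of the 40 fits that left out 1 heart. It did not pass with no filter on low counts (log2 0.067, adjusted p = 0.173), with at least 10 counts in every heart (adjusted p = 0.0597), with only the 2 groups in the fit (adjusted p = 0.0732), or within the hearts with low (log2 0.042, adjusted p = 0.608) or high *Myl4* (adjusted p = 0.0541).

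The repair enzymes moved in opposite directions. *Tdp1*, which frees DNA ends from TOP1, had a lowest level of 5.26, a median of 6.13 and a highest level of 7.89 CPM in Ctrl hearts. In Doxo hearts the lowest level was 3.67, the median 4.95 and the highest 6.27 CPM, and the Doxo median lay below every Ctrl heart. The log2 fold change was -0.37 ± 0.0676 (SE, adjusted p = 1.10e-05). *Tdp2*, which frees DNA ends from TOP2, had a Ctrl range of 12.2 to 15.8 CPM and a median of 13.5 CPM. In Doxo hearts its range was 12.4 to 20.4 CPM and its median 14.5 CPM, so that the groups overlapped over most of their range. The change of 0.14 ± 0.0578 on the log2 scale (SE, adjusted p = 0.0331) passed in 30 of the 40 fits that left out 1 heart and not within the 23 hearts with low *Myl4* (log2 0.065, adjusted p = 0.562). It also did not pass with limma voom (adjusted p = 0.0780), no filter on low counts (adjusted p = 0.115), only the 2 groups in the fit (adjusted p = 0.0601) or the replicate number as a block (adjusted p = 0.0616).

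Genes that act beside these enzymes changed in shares near or below that of all genes. Of 22 genes of cleavage complex and break repair, all were tested, and 10 rose and 5 fell, or 68.2% against 68.1% of all genes, with a median log2 fold change of 0.10, and without Doxo replicate 6 the counts were 9 and 6. *Prkdc*, the catalytic subunit of the DNA-dependent protein kinase, rose (log2 0.56), as did *Pias1*, a SUMO ligase (0.47), and *Rnf4*, a ubiquitin ligase that acts on SUMO-marked proteins (0.37), while *Parp1*, the main poly(ADP-ribose) polymerase, fell (-0.51). Of 14 partner proteins of topoisomerases, 4 rose and 3 fell, or 50% against 68.1%. They included *Blm* (1.13), the helicase that works with *Top3a*, and *Fmr1* (0.79), an RNA-binding protein found with *Top3b*, which rose, and *Tdrd3* (-0.41), the partner of *Top3b*, which fell. *Rmi2*, a subunit of the BLM complex, fell from a mean of 0.355 to 0.0616 CPM, the latter close to the limit of 3 counts. These lists overlap with no member and their genes share the hearts of the comparison above.

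To ask what NMN added to acute Doxo, Doxo-NMN hearts were compared with Doxo hearts. *Tdp1* rose by a log2 fold change of 0.42, *Top1* fell by 0.21 and *Top2b* fell by 0.14 on the log2 scale. Of the members, 1 rose, against 25.7% of all genes, and 2 fell, against 27.4%, or 3 in all against 53%. None was called with a fold change of at least 1.5 by edgeR (0 of 8, against 17.1% of all genes), and no groups failed to overlap, against 0.0562%. At an unadjusted p under 0.05 with this fold change 1 member passed, *Top2a*, against 17.6% of all genes, and DESeq2 called it while limma voom did not.

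*Tdp1* had a lowest level of 5.93, a median of 6.50 and a highest level of 7.36 CPM with NMN. The log2 fold change against Doxo was 0.42 ± 0.0686 (SE, adjusted p = 8.28e-06), and against Ctrl it was 0.051 (95% interval -0.085 to 0.19, adjusted p = 0.607). These comparisons share the Doxo or the Doxo-NMN hearts. Both *Tdp1* changes against the Doxo group, that of Doxo vs. Ctrl and that of Doxo-NMN vs. Doxo, passed in all 40 fits that left out 1 heart and within the hearts with low and those with high *Myl4*.

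*Top1* had a Doxo-NMN range of 48.4 to 70.6 CPM and a median of 64.2 CPM. Against Doxo its log2 fold change was -0.21 ± 0.0734 (SE, adjusted p = 0.0161). This call was lost without Doxo replicate 5 (adjusted p = 0.0587) and in limma voom (log2 -0.081, adjusted p = 0.344), and within the 17 hearts with high *Myl4* the direction turned (log2 0.071). *Top2b* had a Doxo-NMN range of 66.7 to 90.9 CPM and a median of 81.9 CPM. For *Top2b* the log2 fold change was -0.14 ± 0.0457 (SE, adjusted p = 0.00757) against Doxo and -0.13 ± 0.0449 (SE, adjusted p = 0.0333) against Ctrl. Against Doxo it was -0.16 (adjusted p = 0.0902) within the hearts with low and -0.12 (adjusted p = 0.0723) within those with high *Myl4*. Against Ctrl it was -0.16 (adjusted p = 0.201) and -0.086 (adjusted p = 0.273) within the same hearts, it did not pass with the replicate number as a block (adjusted p = 0.0738), and it was lost without Ctrl replicate 10 or 12 or without Doxo-NMN replicate 11, 12 or 13 (adjusted p from 0.0506 to 0.0707).

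*Top2a* stayed low in Doxo-NMN hearts, with a lowest level of 0.120, a median of 0.477 and a highest level of 0.666 CPM, from 5 to 32 counts. Every Doxo-NMN heart lay below every Ctrl heart, and the log2 fold change against Ctrl was -2.39 ± 0.358 (SE, adjusted p = 7.88e-06). Against Doxo the log2 fold change was -0.81 ± 0.361 (SE, adjusted p = 0.0548), which did not pass, and without Doxo replicate 6 it was -0.17 (adjusted p = 0.614).

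Between Doxo-NMN and Ctrl hearts, 1 member rose, against 15% of all genes, and 2 fell, against 11.1%, or 3 in all against 26%. With the fold change of 1.5, 1 member was called, *Top2a*, which fell, against 7.11% of all genes in either direction and 3.79% that fell. *Top2a* was also the 1 member whose groups did not overlap, against 1.43% of all genes. The member that rose was *Top3a*, with a Doxo-NMN range of 5.31 to 7.75 CPM and a median of 6.47 CPM. The log2 fold change was 0.32 ± 0.0823 (SE, adjusted p = 0.0040) against Ctrl and -0.070 (95% interval -0.24 to 0.099) against Doxo. The change against Ctrl did not pass within the hearts with low (adjusted p = 0.117) or high *Myl4* (adjusted p = 0.106), which hold fewer hearts. *Top3b*, *Tdp2* and *Top1mt* had Doxo-NMN medians of 24.3, 14.1 and 5.32 CPM, and none of them passed against Doxo or Ctrl, with log2 fold changes from -0.12 to 0.13. For *Top3b* the log2 fold change against Ctrl was 0.092 (95% interval 0.0095 to 0.17, adjusted p = 0.0910), near the 0.097 of Doxo vs. Ctrl. Against Doxo that of *Top3b* was -0.0048. The *Top3b* change against Ctrl passed under 2 of 51 alternatives.

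Of the further genes in Doxo-NMN vs. Doxo, 6 of the 22 break repair genes rose and 7 fell, or 59.1% against 53% of all genes, among them *Parp1*, which rose (log2 0.45), and *Rnf4*, which fell (-0.35). All 12 tested proliferation genes fell in Doxo-NMN vs. Ctrl (100%, against 11.1% of all genes), with a median log2 fold change of -1.16. In Doxo-NMN vs. Doxo 1 of them rose, *Cenpf* (0.92), or 8.33% against 25.7% of all genes. In the same comparison 4 fell, among them *Mki67* (-0.73), or 33.3% against 27.4%. Without Doxo replicate 6, 2 proliferation genes rose and 3 fell in this comparison. With all hearts the shares were as follows. The share that changed was 41.7%, against 53% of all genes, and *Cdk1* did not pass (-0.13, adjusted p = 0.755). Of the 14 partner proteins, 4 rose and 3 fell in Doxo-NMN vs. Doxo, or 50% against 53% of all genes. *Fmr1* (-0.78) and *Blm* (-0.75) were among those that fell.

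To ask whether the same genes differed long after a chronic regimen, the 3 groups were compared on day 60. No member passed in Doxo vs. Ctrl (0 of 8, against 0.0602% of all genes), in Doxo-NMN vs. Doxo (0 of 8, against 0%) or in Doxo-NMN vs. Ctrl (0 of 8, against 0.0401%), by edgeR, DESeq2 or limma voom. At an unadjusted p under 0.05, edgeR counted 0, 0 and 1 members in these comparisons, the last being *Top2a*, against 7.85%, 2.95% and 4.73% of all genes. The groups of all members overlapped in CPM, while they did not overlap for 0.922%, 0.16% and 0.775% of all genes. *Tdp2* and *Top3a* belong to a panel of genes that the study chose on these same chronic hearts. The study reports the panel as raised by Doxo and lowered by NMN, after an analysis of gene sets. Here neither gene passed on its own in Doxo vs. Ctrl (edgeR, adjusted p = 0.702 and 0.783). Their direction in these hearts is not independent evidence.

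**Figure D4:**
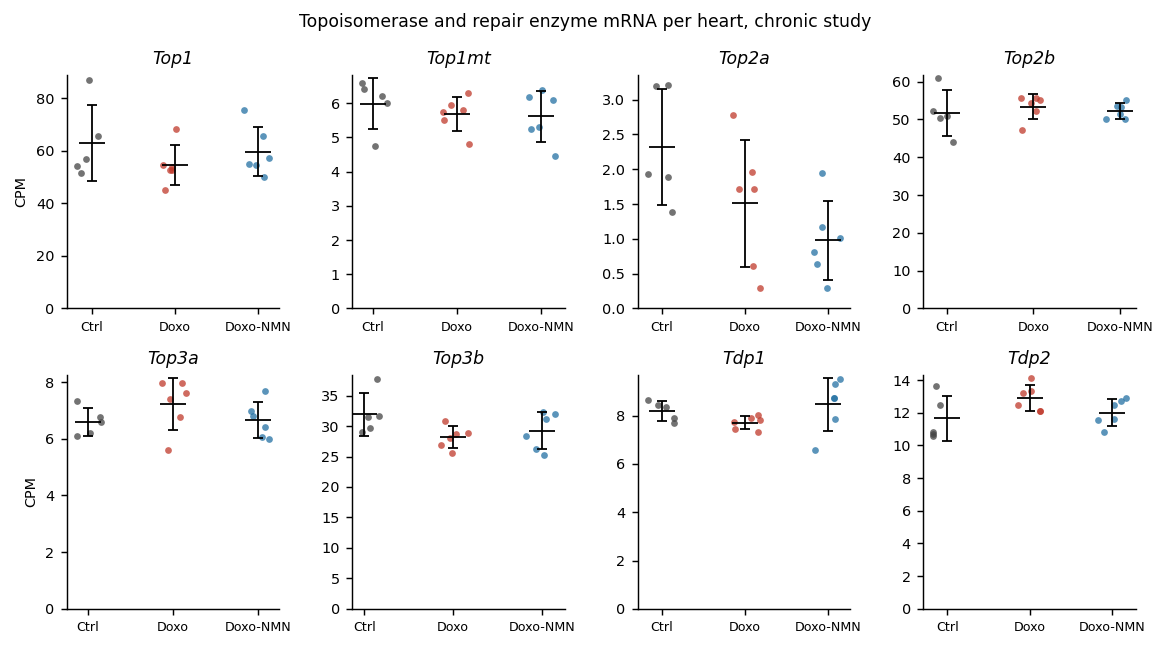
Level of each member in every heart of the chronic study (y axis, CPM), with Ctrl (n = 5), Doxo (n = 6) and Doxo-NMN (n = 6) hearts as points and mean ± SD as bars. The groups overlap for every member, and Ctrl replicate 1 has the highest *Top3b* level, 37.8 CPM.

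*Top2a* was at 3.21, 3.20, 1.89, 1.38 and 1.92 CPM in chronic Ctrl replicates 1 to 5. In Doxo hearts its lowest level was 0.287, its median 1.72 and its highest level 2.77 CPM, and in Doxo-NMN hearts the same values were 0.290, 0.911 and 1.94 CPM. The groups overlapped, with Ctrl replicate 4 below 4 of the Doxo hearts. The log2 fold change was -0.60 (95% interval -1.49 to 0.30, adjusted p = 0.738) in Doxo vs. Ctrl, -0.66 (-1.56 to 0.24) in Doxo-NMN vs. Doxo and -1.25 (-2.17 to -0.33, adjusted p = 0.924) in Doxo-NMN vs. Ctrl. At 5 to 67 counts per heart these intervals were wide. In the same order, the acute 95% intervals were -2.27 to -0.88, -1.54 to -0.085 and -3.12 to -1.67, and each overlapped the chronic one. Such an overlap does not test a difference, and for Doxo vs. Ctrl the difference is tested with the interaction below. The lowest Doxo heart, replicate 2, also had the lowest sums of its group for proliferation genes, 15.9 CPM against a median of 35.2 CPM, and for erythroid genes, 16.2 CPM against a median of 262.2 CPM.

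*Top2b* was at 44.1, 61.0, 50.3, 50.9 and 52.3 CPM in Ctrl replicates 1 to 5, and its Doxo range was 47.2 to 55.7 CPM. Doxo vs. Ctrl gave a log2 fold change of 0.045 (95% interval -0.12 to 0.21). *Top1* was at 86.9, 65.4, 54.2, 56.7 and 51.4 CPM in Ctrl replicates 1 to 5, with replicate 1 above all other chronic hearts, and its Doxo range was 45.0 to 68.3 CPM. Its log2 fold change was -0.21 (95% interval -0.49 to 0.078). *Top1mt* had a Ctrl range of 4.74 to 6.59 CPM and a Doxo range of 4.81 to 6.30 CPM.

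*Top3a* was at 6.59, 6.20, 6.76, 7.34 and 6.11 CPM in Ctrl replicates 1 to 5, with a Doxo range of 5.61 to 7.99 CPM and a log2 fold change of 0.13 (95% interval -0.10 to 0.36). *Top3b* was at 37.8, 29.1, 31.6, 29.6 and 31.5 CPM in Ctrl replicates 1 to 5, with a Doxo range of 25.7 to 30.8 CPM and a log2 fold change of -0.18 (-0.37 to 0.0088). *Tdp1* was at 7.68, 8.43, 7.90, 8.35 and 8.66 CPM in the same hearts. Its Doxo range was 7.33 to 8.03 CPM and its log2 fold change -0.088 (95% interval -0.30 to 0.12), while its Doxo-NMN range was wider, 6.60 to 9.53 CPM. *Tdp2* was at 13.7, 10.6, 10.8, 10.7 and 12.4 CPM in Ctrl replicates 1 to 5, with a Doxo range of 12.1 to 14.1 CPM and a log2 fold change of 0.15 (-0.041 to 0.34). Ctrl replicate 1 was the highest Ctrl heart for *Top1*, *Top2a*, *Top3b* and *Tdp2* and the lowest for *Top1mt*, *Top2b* and *Tdp1*.

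**Figure D5:**
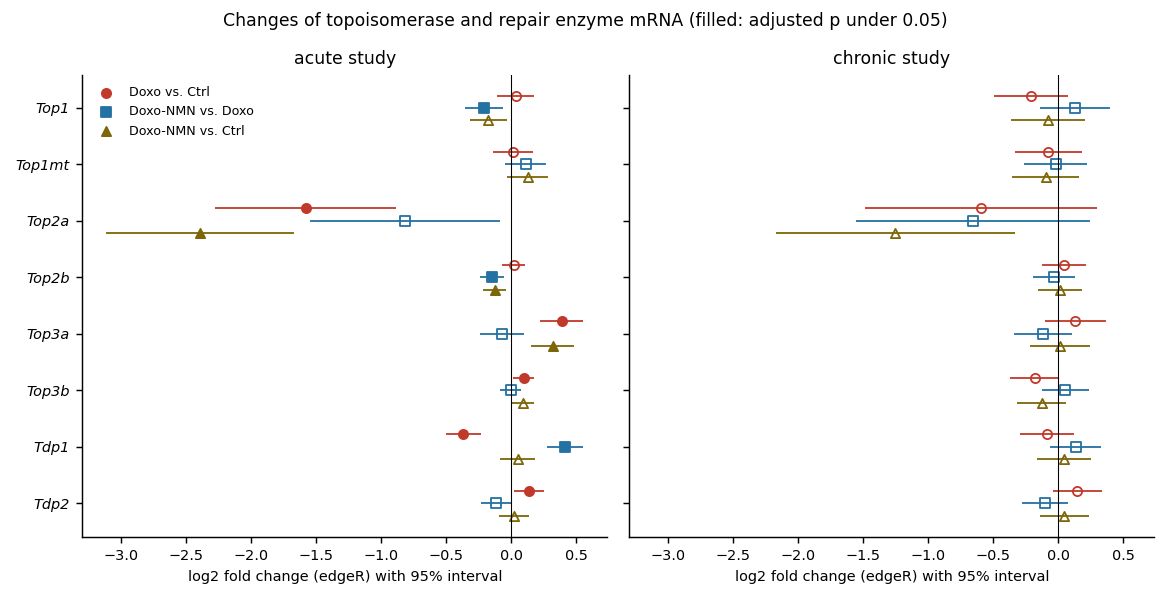
Log2 fold change of each member (x axis, edgeR) with its 95% interval in Doxo vs. Ctrl (circles), Doxo-NMN vs. Doxo (squares) and Doxo-NMN vs. Ctrl (triangles), acute study at left and chronic study at right; filled symbols have an adjusted p under 0.05. *Tdp1* has filled symbols on both sides of 0 in the acute study, and the chronic study has no filled symbol.

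The effects of Doxo in the 2 regimens were compared with an interaction test on the Ctrl and the Doxo hearts, both studies together, in which 19.3% of 14965 genes passed. Dose schedule, time, age, supplier and sequencing site differ between the studies and cannot be told apart. *Top3b* passed, with a chronic minus acute difference of -0.27 ± 0.0878 on the log2 scale (SE, adjusted p = 0.0281), from an acute effect of 0.097 and a chronic effect of -0.18. It did not pass without chronic Ctrl replicate 1 (-0.20, adjusted p = 0.0882), chronic Ctrl replicate 3 (-0.27, adjusted p = 0.0509), chronic Doxo replicate 1 (-0.26, adjusted p = 0.0519) or chronic Doxo replicate 3 (-0.25, adjusted p = 0.0592). The other 7 members did not pass. For *Top2a* the difference was 0.97 ± 0.677 (adjusted p = 0.301), and without acute Doxo replicate 6 it was 1.62 (adjusted p = 0.0167). For *Tdp1* it was 0.28 ± 0.129 (adjusted p = 0.111), and for *Top3a* -0.25 ± 0.153 (adjusted p = 0.229).

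The genes whose acute pattern was most like that of each member were read from the mean of the Pearson r within the 3 groups (40 hearts, log2 CPM, no test). For *Top2a* they were *Ift122* (0.671), *Cdk1* (0.666) and *Fzd8* (0.645), for *Top2b* *Ppp4r3a* (0.759), *Rif1* (0.722) and *Rasa1* (0.715), and for *Top1* *Il13ra1* (0.716), *Rbm25* (0.685) and *Ptbp3* (0.671). For *Top1mt* they were *Usp9x* (0.702), *Bcar1* (0.641) and *Sgcd* (0.638), for *Top3a* *Pan3* (0.670), *Zfp652* (0.665) and *Crebbp* (0.665), and for *Top3b* *Srgap1* (0.706), *Abcc4* (0.676) and *Nid2* (0.663). For *Tdp1* they were *Ccdc51* (0.679), *Mgat1* (0.676) and *Map3k10* (0.666), and for *Tdp2* *Atad1* (0.686), *Cdc73* (0.631) and *Arih1* (0.630). The Pearson values above are the highest of all genes tested and so are high by selection. With ranks in place of levels, *Top2a* was at 0.563 with *Ift122*, 0.470 with *Cdk1* and 0.543 with *Fzd8*. Among the members themselves the highest value was that of *Top1* with *Tdp2* (0.585), followed by *Top2a* with *Top3b* (0.414) and *Top1mt* with *Tdp1* (0.408), and the lowest was that of *Top3a* with *Tdp1* (-0.36). In the chronic study the value of *Top1* with *Tdp2* was -0.069 over 17 hearts.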

How the data were processed

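RNA-seq of heart tissue was analysed for 40 acute and 17 chronic hearts, grouped by their labels. The authors selected poly(A) RNA, mapped single-end reads to mm10 with STAR (2.7.3a in the submitters' processing notes) and counted them with featureCounts 2.0.0. The deposited counts are whole numbers that the authors neither normalized nor filtered, as far as stated. Of the counts from 1 to 20, 73.7% were even in the acute and 40.3% in the chronic table, so that acute counting error may be larger than the counts imply. The test was edgeR 4.0.16 in R 4.3.3 (filterByExpr, TMM, quasi-likelihood F-test, the 3 groups of a study together), with Benjamini-Hochberg adjustment. As in the study, acute calls also needed a 1.5-fold change. The 95% intervals come from the fitted standard errors. Alternatives were DESeq2 1.42.0, limma 3.58.1 voom with sample weights, RLE factors, other filters, halved acute counts, the replicate number as a block, and leaving out each heart. The scripts were tested on simulated data, and no library was found to be a copy of another (lowest chi-square per gene 10.4 and 5.49).

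The members and lists were chosen with earlier results of these data known, as were the *Myl4* limit of 100 CPM and the halving of acute counts. The proliferation sum without *Cenpf* and the *Top2a* share without Doxo replicate 6 were added after seeing the data. All members are named, and of each further list at most 4 genes, those with the smallest adjusted p in acute Doxo vs. Ctrl, and also *Mki67* and *Cdk1*. Outside this rule *Rrm2* was named after its value was seen. Of the chronic comparisons the further lists held 0 genes that passed by edgeR, DESeq2 or limma voom, with at most 3 genes per list at an unadjusted p under 0.05 by edgeR. Replicate numbers were not taken to pair the hearts. The correlations of deviations between same-numbered hearts ran from -0.62 to 0.58 in the acute study. Their median was 0.061, against -0.033 for other pairs, and such a check cannot exclude pairing.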

Additional observations from a re-analysis of the deposited data

Results flagged for a closer look

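In the chronic study the *Top3b* level of Ctrl replicate 1, 37.8 CPM, stood far above the other 4 Ctrl hearts, of which the nearest was at 31.6 CPM, and the gap was 0.712 of the range of the group. Chance marks about 1 in 20 groups in this way. The check was run on all 8 members in each of the 3 chronic groups and marked no other, so that a single mark is near what chance gives.

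The effect of Doxo on *Top3b* differed between the chronic and the acute study in the interaction test, with a difference of -0.27 on the log2 scale. Without Ctrl replicate 1 of the chronic study it was -0.20 and did not pass (adjusted p = 0.0882).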

How the results depend on the processing

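Over all alternatives, 2154 log2 values of single members were recomputed, of which 2021 kept their direction and their side of the threshold. At an adjusted p under 0.05 with no fold change cutoff, 52 no longer passed and 17 newly passed. Another 64 changed sign, of which 1 had passed before, *Top1* in acute Doxo-NMN vs. Doxo. *Tdp1* and *Top3a* in acute Doxo vs. Ctrl, *Tdp1* in Doxo-NMN vs. Doxo, and *Top2a* in Doxo vs. Ctrl and Doxo-NMN vs. Ctrl passed under every alternative that tested them.

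Without the fold change of 1.5, the acute counts of members called were 5 in Doxo vs. Ctrl, 3 in Doxo-NMN vs. Doxo and 3 in Doxo-NMN vs. Ctrl. With at least 10 counts in every heart *Top2a* was not tested, and the counts were 0 in Doxo vs. Ctrl and 0 in Doxo-NMN vs. Ctrl. In Doxo-NMN vs. Doxo the count was 1, *Top2a*, with DESeq2 and 1 within the hearts with low *Myl4*, and 0 to 1 when each heart was left out in turn. The interaction gave 0 to 2 members when each Ctrl or Doxo heart was left out, fits that apart from the one without acute Doxo replicate 6 were chosen after seeing the data; Doxo replicate 6 gave the 2.

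With the replicate number as a block, the pairing of hearts by number changed no acute count of members called (1, 0 and 1), and *Tdp2* in Doxo vs. Ctrl (adjusted p = 0.0616) and *Top2b* in Doxo-NMN vs. Ctrl (adjusted p = 0.0738) no longer passed. Of 39 same-numbered acute pairs 18 had a correlation over 0.1, and of 16 chronic pairs 4. The median was 0.061 against -0.033 for other acute pairs and 0.022 against -0.014 for other chronic pairs. Whether the numbers pair the hearts is not settled by these values.

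The cause of the changes of sign was not tested, and the largest were *Top1* and *Top2a* with high *Myl4*, from -0.21 and -0.81. In acute Doxo vs. Ctrl they were *Top1* (-0.054 with voom, -0.095 with high *Myl4*), *Top1mt* (-0.021 with voom, -0.015 with no filter, -0.052 with high *Myl4*) and *Top2b* (-0.010 with no filter, -0.0035 with low *Myl4*). In Doxo-NMN vs. Doxo they were *Top3b* (0.0043 with voom, 0.013 with no filter, 0.0050 with low *Myl4*) and, with high *Myl4*, *Top1* (0.071) and *Top2a* (0.17). In Doxo-NMN vs. Ctrl they were *Tdp1* (-0.053) and *Tdp2* (-0.039) with low *Myl4*, and in the chronic study, with voom, *Top1* (0.035), *Top3a* (-0.024) and *Tdp1* (-0.014). The *Tdp2* interaction was -0.0089 with DESeq2 and -0.011 with RLE factors.

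When single hearts were left out, the values that changed sign ran from -0.029 to 0.069 (*Top1*), -0.019 to 0.040 (*Top1mt*) and -0.011 to 0.031 (*Top2b*) in acute Doxo vs. Ctrl, and from -0.022 to 0.020 (*Top3b*) in Doxo-NMN vs. Doxo. In the chronic study they ran from -0.16 to 0.059 (*Top1*), -0.042 to 0.080 (*Top2b*) and -0.037 to 0.054 (*Top3a*) in Doxo-NMN vs. Ctrl, from -0.064 to 0.034 (*Top1mt*) in Doxo-NMN vs. Doxo and from -0.0077 to 0.12 (*Top2b*) in Doxo vs. Ctrl. For the interaction they ran from -0.026 to 0.079 (*Tdp2*) and from -0.021 to 0.10 (*Top2b*). Depth limits *Top2a* the most, with 4 to 154 counts per acute heart.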

Other observations

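In the chronic study, the mean Pearson r of *Top2a* with the proliferation genes within groups was higher than in the acute study for 10 of 12 genes and lower for *Cenpf* and *Rrm2*, as a description over 17 hearts. It was 0.932 with *Tpx2*, 0.739 with *Cdk1* and 0.832 with *Mki67*, and -0.098 with *Cenpf* and 0.207 with *Rrm2*, a subunit of ribonucleotide reductase that was named after its value was seen. In the acute study the same genes were at 0.305, 0.666, 0.537, 0.071 and 0.384. With ranks in place of levels they were at 0.905, 0.667, 0.890, -0.148 and 0.062 in the chronic study. In the acute study the rank values were 0.185, 0.470, 0.447, -0.018 and 0.340. Each value is a mean of correlations within groups, each over 5 or 6 chronic or 13 or 14 acute hearts. Chronic Doxo replicate 2, lowest of its group for *Top2a* and for the proliferation sum, is among the chronic hearts. The hearts of a group share normalization, and the difference between studies was not tested.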
